A study of Mus musculus with 11 samples.

Results

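Shared intergenic regions are stretches of open chromatin that lie between genes and carried an ATAC-seq peak in every library of dopaminergic (DA) and serotonergic (5-HT) neurons. They were chosen by the deposited score, a value given for each region in each library that is 0 where the library had no peak and whose scale is not named. A region was taken when its score was above 0 in all 5 libraries, when it was narrower than 4000 bp, and when its centre lay outside the promoters and gene bodies of the GENCODE annotation for mm9. A promoter here starts 1 kb before a transcription start site (TSS) and ends 100 bp after it. The rule took 3557 of the 131942 regions listed for the series. These are 21.1% of the 16856 regions with a score in all 5 libraries, called shared regions here, and 5.85% of the 60817 listed regions that are intergenic.

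ATAC-seq was carried out on neurons sorted by fluorescence from mouse embryos at E14.5, with 3 DA and 2 5-HT libraries, each from an independent sort of pooled dissections. The DA neurons were GFP-positive cells of the ventral mesencephalon of TH-GFP embryos, a line kept on a C57BL/6J background in which a rat Th promoter drives GFP, so the sort selects cells by activity of that promoter and not by dopamine. The 5-HT neurons were YFP-positive cells of hindbrain rhombomeres 1 to 3 of embryos from a line that joins a Cre transgene with ROSA YFP, in which Cre turns on a lasting YFP, so other descendants of cells that once had Cre can carry it too. In both cases the transgenic males were mated with Swiss wild-type females, so line, brain region and sort differ together with the cell type and cannot be told apart from it.

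In ATAC-seq, a transposase cuts DNA that is not wrapped tightly in nucleosomes, so peaks mark promoters, enhancers and sites held open by DNA-binding proteins. Open regions between genes include distal enhancers, which often act in few cell types, and sites of the insulator protein CTCF, which are open in many cell types. Dopaminergic and serotonergic neurons arise on opposite sides of the border between midbrain and hindbrain, and share the machinery that loads monoamines into vesicles as well as the general program of a young neuron.

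The cell type labels were compared with the promoters of marker genes. The promoter of Th, which encodes tyrosine hydroxylase, the first enzyme of dopamine synthesis, scored 9.91, 10.6 and 8.45 in DA replicates 1, 2 and 3, and was listed at 0 in both 5-HT libraries. The GFP transgene carries a Th promoter from rat, and whether reads from it were placed at the mouse promoter was not tested. Of 9 DA marker genes, 9 had a promoter peak in each DA library and 6 in each 5-HT library, and the summed promoter score of the list was 68.0, 70.3 and 61.0 in the DA libraries against 30.4 and 19.8 in the 5-HT libraries. The 5-HT markers did not separate the libraries in this way. Of 9 such genes, of which Ddc and Slc18a2 are in the DA list too because both cell types need them, 7, 8 and 7 had a promoter peak in the DA libraries, and 7 and 4 in the 5-HT libraries, with summed scores of 42.2, 46.5 and 41.9 against 35.7 and 17.3. The promoter of Fev, the transcription factor that defines 5-HT neurons, was at 0 in the DA libraries and scored 3.88 in 5-HT replicate 1, but it was at 0 in 5-HT replicate 2. The promoter of Slc6a4, the serotonin transporter, was at 0 in both 5-HT libraries and scored 4.80, 6.56 and 3.76 in the DA libraries. Tph2, the enzyme of serotonin synthesis in neurons, had a promoter peak in all 5 libraries (9.91, 7.59, 11.1, 7.09 and 3.59, in the order DA replicates 1 to 3, then 5-HT replicates 1 and 2, which is kept below). The promoters of Gata2 (0, 3.11, 0, 4.20 and 0) and Nkx2-2 (3.51, 3.80, 3.67, 5.21 and 0) scored highest in 5-HT replicate 1. That of Gata3 (6.98, 4.52, 4.65, 5.17 and 7.51) scored highest in 5-HT replicate 2. That of Lmx1b (6.00, 7.62, 6.01, 4.44 and 0) was higher in each DA library than in either 5-HT library. The DA label thus had its markers, whereas among the 5-HT markers Fev alone had peaks in the 5-HT group and none in the DA group.

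Markers of other cells were read in the same way. Of 10 genes of glia, vessels and microglia, 3, 6 and 6 had a promoter peak in the DA libraries and 4 and 1 in the 5-HT libraries, with summed scores of 16, 30.3, 27.9, 20.2 and 4.27. The highest of these promoters was that of the astrocyte gene Gfap (6.91, 8.76, 7.34, 6.92 and 0) in every library but 5-HT replicate 2. In that library only Olig2 (0, 4.36, 4.42, 4.73 and 4.27) scored. The vessel genes Cldn5 (4.86, 4.94, 5.22, 4.62 and 0) and Kdr (4.23, 4.16, 4.28, 3.89 and 0) scored in all the others. The promoters of Aqp4 and Pdgfrb scored in DA replicates 2 and 3 alone. No region was listed at the promoters of Sox10, Pecam1, Cx3cr1 and Csf1r, which mark oligodendrocyte precursors, vessels and microglia. The 3 genes of GABA neurons had promoter peaks in 3, 3, 3, 3 and 2 genes, with summed scores of 14.9, 13.9, 12.9, 13.3 and 6.60. The glutamate transporter Slc17a6 scored 9.97, 12.9, 12.8, 3.65 and 0. In pooled cells, fewer cells that hold a region open and less opening per cell cannot be told apart.

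The libraries differed in how many regions had a score. These were 52861, 93055 and 94351 in the DA libraries, and 38772 and 22879 in the 5-HT libraries. The read depth behind them is unknown, so no counting error can be given. By the study's methods, fewer cells were sorted for each 5-HT library than for any DA library, and the part of cell number in the shorter 5-HT lists was not tested. Because the rule asks for a score in every library, 5-HT replicate 2, the library with the fewest scored regions, set most of the limit. Among intergenic regions under the width limit, 4044 had a score in the other 4 libraries and 0 in 5-HT replicate 2, against 569 that lacked a score in 5-HT replicate 1 alone, and 399, 12 and 36 that lacked one in DA replicates 1, 2 and 3 alone. Without 5-HT replicate 2 the rule would have taken 7601 regions. The 4044 regions just outside had median scores of 5.41, 6.19, 5.74 and 4.23 in the libraries where they were scored. The shared intergenic regions had medians of 6.81, 7.90, 7.35 and 5.29 in the same libraries, so those lacking a score in 5-HT replicate 2 were the lower ones in each.

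In 5-HT replicate 2 itself the shared intergenic regions had a median score of 3.70. Their lowest scores were 3.45, 3.09, 3.03, 3.37 and 2.83, close to or at the lowest score above 0 of each library (3.45, 3.04, 3.03, 3.37 and 2.83), and their highest were 184, 135, 183, 123 and 75.5. The regions thus ran from the floor of each library to scores many times their median. Since the scale is not named, a region's place was also taken as its percentile among all scored regions of the same library. The median percentile was 71.9, 82.4 and 84.6 in the DA libraries and 67.7 and 50.3 in the 5-HT libraries. These percentiles depend on how many regions a library scored, and the library with the lowest value, 5-HT replicate 2, is also the one with the shortest list. The percentile was lowest in 5-HT replicate 2 for 2156 of the 3557 regions (60.6%), and in DA replicate 3 for 31.

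To compare libraries on the same list, each region was also ranked among the 16856 shared regions of each library, from 0 to 100. This shared rank had a median of 40.1, 36.2 and 41.3 in the DA libraries and 41.5 and 39.5 in the 5-HT libraries. In all 5 libraries, then, the shared intergenic regions stood below the middle of the shared regions. Shared promoter regions (7349 under the same width limit) had median scores of 8.64, 11.1, 9.27, 6.15 and 4.39, above those of the intergenic regions in each library. Shared intronic regions (3872) had 6.74, 7.97, 7.17, 5.24 and 3.75, which is nearly the same as the intergenic medians. The order of the shared intergenic regions was more alike between DA libraries (Spearman's rho 0.848 to 0.865, n = 3557 regions) than between the 5-HT libraries (0.513) or across cell types (0.472 to 0.613). Regions are not independent replicates, and these values are a description.

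The shared intergenic regions were 128 to 3760 bp wide, with a median of 788 bp and quartiles of 535 and 1157 bp. The medians were 992 bp for shared intronic and 1214 bp for shared promoter regions. For comparison with intergenic regions of 1 cell type, the 8339 regions under the same limit that scored in all 3 DA libraries and were at 0 in both from 5-HT neurons are called DA-only, and their median width was 517 bp. Width and score were weakly related among the shared intergenic regions, with Spearman's rho from -0.169 to -0.053 over the 5 libraries. The width limit itself left out 23 regions. The widest regions inside it were chr14:100682641-100686400 (mm9, as all positions here; 3760 bp), 136 kb upstream of Klf12, a zinc finger repressor, and chr6:39820198-39823944 (3747 bp), 61.1 kb upstream of Mrps33, a protein of the mitochondrial ribosome. The former scored 5.70, 7.26, 6.66, 4.76 and 3.36 and the latter 5.80, 7.61, 6.63, 4.24 and 3.09. Just outside the limit were chr1:85290394-85294603 (4210 bp), near C130026I21Rik, with scores of 4.77, 4.27, 4.22, 3.43 and 3.29, and chr8:46019904-46024185 (4282 bp), near the cadherin gene Fat1, with 6.59, 8.14, 7.43, 6.40 and 4.89. The scores on both sides of the limit were of the same order.

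The regions were spread over all autosomes and both sex chromosomes. Their number per 10 Mb ran from 9.11 on chromosome 5 to 17.2 on chromosome 18, and was 4.14 on chromosome X and 1.26 on chromosome Y. Chromosome 3 held the most, with 270. Sexes of the pooled embryos are not given. Neighbouring shared intergenic regions lay a median of 322 kb apart, and 211 of 3536 neighbouring pairs (5.97%) lay within 10 kb. Most of them therefore stood alone on this scale.

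Distances run from the centre of a region to the closest TSS among protein-coding transcripts. The median was 39.8 kb, with quartiles of 14.4 and 100.2 kb, and 2148 regions (60.4%) lay upstream of that TSS. The rule keeps regions out of promoters, so the lowest distance, 1.01 kb, is set by it. The DA-only intergenic regions had a median of 70.5 kb and all listed intergenic regions 78.4 kb. The shared intergenic regions thus lay nearer to genes than either. They also had higher scores than DA-only regions at like distances, with median percentiles in the DA libraries of 75.1, 84.7 and 85.9 against 41.7, 62.5 and 64.9 at 5 to 50 kb, and the part of score in what sets them apart from DA-only regions was not tested. Of the 3557, 325 (9.14%) lay under 5 kb from a TSS, 1659 (46.6%) at 5 to 50 kb, 1477 (41.5%) at 50 to 500 kb and 96 (2.70%) beyond. Among the DA-only regions the shares were 5.61%, 35.7%, 51.9% and 6.82%. Shared intronic regions had a median of 8.16 kb, but their place inside a gene sets a limit that intergenic regions do not have. With the TSSs of all transcripts in place of protein-coding ones, the median fell to 23.9 kb.

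Regions near a TSS ranked higher than distant ones in all 5 libraries. The median percentiles were 76.7, 86.1, 87.3, 72.3 and 56.2 for those under 5 kb, and 67.9, 79.1, 82.2, 64.5 and 46.3 for those at 50 to 500 kb. Over all 3557 regions, distance and mean percentile had a Spearman's rho of -0.174, so distance accounted for little of the order. The farthest from a protein-coding TSS were chr18:28236133-28237110, 2196 kb upstream of Pik3c3, a lipid kinase of autophagy, chr8:52000558-52003338, 1453 kb downstream of 4930555F03Rik, and chr10:15876509-15877371, 1397 kb downstream of Nmbr, the neuromedin B receptor. The first scored 8.51, 9.28, 8.92, 6.34 and 4.23, the second 5.45, 6.39, 5.73, 4.87 and 3.23, and the third 3.77, 4.92, 5.43, 3.63 and 3.75. The region near Pik3c3 had shared ranks of 49.9 to 63.5, that near 4930555F03Rik 18.9 to 31.1 and that near Nmbr 2.06 to 41.6. The farthest region thus stood near the middle of the shared regions, and the others named here stood lower.

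GC content was not used to choose the regions. The median over the shared intergenic regions was 50.3%, with quartiles of 46.6% and 54.4%. It was 46.8% for DA-only intergenic regions, 52.9% for shared intronic and 59.5% for shared promoter regions. This order held on each of the 20 chromosomes compared, with the median of the shared intergenic regions above that of DA-only and below that of intronic and promoter regions on 20 of 20 (chromosome Y, with 2 shared intergenic regions, was left out). Within the shared intergenic regions the median GC content fell with distance to the TSS, from 53.0% under 5 kb to 51.5%, 48.6% and 45.4% in the classes further out. GC content and score were nearly unrelated, with Spearman's rho between -0.046 and 0.092 over the 5 libraries. The local background was read from windows of 200 bp placed 5 kb to either side of the regions. The central 200 bp of the regions had a median GC content of 51.5%, and the 6677 flanking windows 44.0%.

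CpG dinucleotides are rare in most of the mouse genome, because methylated cytosine mutates, and are kept in CpG islands, which are usually unmethylated and found at promoters. The observed number of CpG over that expected from the base content had a median of 0.332 in the shared intergenic regions, 0.221 in DA-only, 0.365 in shared intronic and 0.730 in shared promoter regions. In central windows of the shared intergenic regions it was 0.357, against 0.154 in their flanks. An island-like stretch was defined as 200 bases with GC content above 50% and a ratio above 0.6. Such a stretch was found in 1473 shared intergenic regions (41.4%), in 51.5% of intronic and 95.7% of promoter regions, and in 707 DA-only intergenic regions (8.48%). Wider regions hold more stretches that can meet the criterion, and the share rose from 18.5% in the 893 narrowest regions, up to 535 bp, to 64.7% in the 887 widest, from 1158 bp. It also rose with score, from 35.4% in the 890 regions of lowest rank to 51.2% in the 889 of highest rank, where rank is the percentile in the library that ranks the region lowest. The genome used does not mark repeats, so the share of repeated bases was not measured.

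Short sequence words known from binding sites were searched on both strands in the central 200 bp. A match is not a site, and the shares describe the windows alone. The CTCF core, named here without its letters, was found in 191 shared intergenic regions (5.37%), and in 4.66% of DA-only intergenic, 4.34% of shared intronic and 0.544% of shared promoter regions. It was found in 2 of the 6677 flanking windows (0.0300%). In this window the core was thus about as frequent in shared as in DA-only intergenic regions and rare in flanks and promoters. In the central 400 bp it was found in 8.29% of shared and 5.59% of DA-only intergenic regions, so the likeness holds for the shorter window alone. Among windows of 200 bp with GC content of 45 to 55%, the share of the core was 6.62% in shared and 5.12% in DA-only intergenic regions. In those of 55% and over it was 3.89% and 6.84%. The order of these groups therefore changed with base content.

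The 191 regions with a CTCF core ranked high in each library. Their median percentiles were 85.6, 89.6, 90.8, 81.5 and 64.1, against 70.7, 81.8, 83.8, 66.9 and 49.7 for the 3366 without it. They were also narrower, with a median of 487 against 812 bp, and lay nearer to a TSS, at 27.4 against 40.9 kb. By width, the share with a core was 13.9% in the narrowest 893 regions and 1.01% in the widest 887. By rank in the lowest library, it rose from 2.36% to 9.11%. The search covers only the central 200 bp, a smaller part of a wide region, so cores off the centre of wide regions are missed. In the central 400 bp the core was found in 295 regions, and its relation with width was not tested at that length. By this search, regions with the core were narrow, with high scores in both cell types. The pair below, chosen after their values were seen, had the highest rank in their lowest library among regions with a core. The first, chr8:18953870-18954414, lies 3.17 kb upstream of Xkr5, a membrane protein of the XK family, and scored 15.7, 19.4, 21.1, 13.9 and 10.8. The second, chr3:15194440-15194674, lies 138 kb downstream of Gm9733, a predicted gene, and scored 13.7, 21.0, 17.3, 8.68 and 7.86. Both were high in all 5 libraries. Their central windows, chr8:18954042-18954241 and chr3:15194457-15194656 (mm9, plus strand), are shown because they carry the word that went with high scores in both cell types. Capitals mark the CTCF core, on either strand. In the second it overlaps the E-box CATCTG, and the capitals cover both.
Xkr5: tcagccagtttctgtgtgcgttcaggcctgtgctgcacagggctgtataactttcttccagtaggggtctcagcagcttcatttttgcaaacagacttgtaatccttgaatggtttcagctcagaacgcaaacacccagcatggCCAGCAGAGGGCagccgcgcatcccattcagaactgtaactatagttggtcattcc
Gm9733: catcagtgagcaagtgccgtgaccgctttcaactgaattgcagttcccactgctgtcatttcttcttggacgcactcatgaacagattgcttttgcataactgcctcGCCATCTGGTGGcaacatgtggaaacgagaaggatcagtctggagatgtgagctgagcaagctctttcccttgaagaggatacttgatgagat

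GGGCGG, the word of Sp and Klf factors at GC-rich promoters, was found in 529 shared intergenic regions (14.9%), 22.3% of intronic and 54.9% of promoter regions, 4.11% of DA-only intergenic regions and 1.92% of flanks. The word is itself GC-rich, so windows of like GC content, meaning the same GC class, were compared. In windows of 55% and over, the share was 33.0% in shared and 16.8% in DA-only intergenic regions and 8.09% in flanks, and in windows of 45 to 55% it was 6.68%, 3.61% and 2.71%. Shared regions thus held the word more often than DA-only ones in both classes. The class of 55% and over has no upper limit, and the upper quartile of window GC content was 57.0% in shared and 51.5% in DA-only regions. GC content can therefore still differ within a class. Regions with the word lay nearer to a TSS (median 23.1 kb) than those without it (44.6 kb).

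E-boxes, bound by proneural and other bHLH factors, showed the opposite order. CAGCTG was found in 657 shared intergenic regions (18.5%), 23.1% of DA-only intergenic regions and 8.64% of flanks. CATCTG was found in 17.3%, 23.5% and 15.2%. At a GC content of 45 to 55%, CAGCTG was in 19.0% of shared, 26.2% of DA-only and 12.8% of flanking windows, so shared regions stood between flanks and DA-only regions. TAATTA, a homeodomain word, was found in 5.57% of shared and 9.99% of DA-only intergenic regions and in 5.71% of flanks. This word is AT-rich, as the flanks are, and at like GC content it was more frequent in shared regions than in flanks. Its shares in shared, DA-only and flanking windows were 14.1%, 16% and 8.82% under 45% GC, and 4.95%, 7.20% and 2.27% at 45 to 55%. Regions with this word lay far from genes, with a median of 64.3 kb, against 38.6 kb without it.

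The words of SOX factors showed the same dependence on base content. ACAAAG or ACAATG was found in 27.4% of shared and 26.2% of DA-only intergenic regions and 26.5% of flanks. At 45 to 55% GC the shares were 30.7%, 24.4% and 22.5%, and under 45% GC they were 37.3%, 31.8% and 30.8%. At like GC content these words were thus more frequent in shared regions than in the others. TGACTCA, the AP-1 word, was found in 2.81%, 3.80% and 3.41%, and TGANNTCA, a word like those of CREB and AP-1, in 6.94%, 7.77% and 9.65%. CCAAT, bound by NF-Y, was found in 22.9%, 24.9% and 27.2%. These words were less frequent in shared regions than in flanks over all windows, and at 45 to 55% GC as well (2.65% against 4.28%, 8.47% against 10.5%, and 24.8% against 26.5%). In windows of 55% GC and over the order turned for TGACTCA (3.14% against 2.09%) and CCAAT (18.5% against 17.2%). The octamer ATTTGCAT of POU factors was found in 2.22%, 1.80% and 1.63%, and GCATGCGC of Nrf1 in 1.15%, 0.408% and 0.315%. At 45 to 55% GC these shares were 2.30%, 1.39% and 0.781%, and 1.04%, 0.478% and 0.483%, so both words were rare but most frequent in shared regions. TTCAGCACC, a part of the site of the neuronal repressor REST, was found in 7 shared intergenic regions (0.197%), 0.228% and 0.195%. The full NFI word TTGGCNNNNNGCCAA was found in 2 shared intergenic regions (0.0562%), 5 DA-only intergenic regions (0.0600%) and none of the flanks.

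The highest scores were looked at next. The region whose rank in its lowest library was highest is chr2:98505073-98505380, 2.23 kb from the TSS of the predicted gene Gm10800, with scores of 184, 135, 183, 123 and 75.5, the highest of the shared intergenic regions in each library. Next came chrX:139917544-139917671 near the kinase gene Pak3, with 99.7, 81.2, 98.9, 57.0 and 35.2, and chr3:5860336-5860827 near the peroxisome gene Pxmp3, with 57.3, 96.3, 55.4, 31.5 and 19.6. These are many times the median scores given above. The region chr12:3109885-3110117 near 1700012B15Rik had 92.0, 33.9, 46.6, 42.9 and 32.6, and chr9:35112789-35113176 near Gm5614 had 84.0, 40.3, 44.4, 29.2 and 19.0. The sixth, chr9:19425959-19427055 near the zinc finger gene Zfp317, had 29.5, 43.4, 47.0, 18.6 and 15.6. All 6 stood in the top 1% of the shared regions in each library, and none differed between DA and 5-HT neurons at an adjusted p under 0.05 (limma, adjusted p from 0.166 to 0.934).

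Reads from sequences that occur more than once can pile up at the copies a genome assembly holds, so copies were counted. A copy is a match of the central 200 bp elsewhere in the genome with at least 95% identity over at least 90% of the window. Of the shared intergenic regions, 71 (2.00%) had a copy, 19 of them 10 or more, against 1.19% of shared intronic and 2.53% of DA-only intergenic regions. No window matched the mitochondrial genome at 95% or at 80% identity. Among the 20 regions of highest rank in their lowest library, 4 had a copy (20.0%), and among the 100 highest, 8. Copies were thus more frequent at the top of the scores than over all regions. The region near 1700012B15Rik had 73 copies, that near Gm5614 had 5 and that near Pxmp3 had 2. At 80% identity, a limit chosen after the data were seen, these numbers were 271, 341 and 5, the region near Gm10800 had 6, and those near Pak3 and Zfp317 had none. How reads with several places in the genome were treated is not given in the sources used here, and the part of copies in the scores was not tested. The window near Gm10800, chr2:98505127-98505326 (mm9, plus strand), is shown because it has the highest scores and repeats itself: shifted by 120 bases, 91.2% of its bases match. Its GC content was 35.1% over the whole region. Capitals mark the word ACAATG, which recurs in the repeat.
Gm10800: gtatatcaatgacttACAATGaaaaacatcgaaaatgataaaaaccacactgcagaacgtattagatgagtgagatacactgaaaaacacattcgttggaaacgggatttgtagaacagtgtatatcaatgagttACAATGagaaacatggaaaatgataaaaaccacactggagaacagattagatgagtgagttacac

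The score in DA and in 5-HT neurons was then compared for each shared region. The rule asks for a score above 0 in every library and not for a difference, but it uses the same scores and leaves out regions at 0 in either cell type, so the comparison is not independent of it and covers no region that one cell type lacks. The test was limma on log2 scores made alike in distribution over the libraries (quantile normalisation), which keeps the order of regions in each library, with p-values adjusted over all 16856 shared regions by the method of Benjamini and Hochberg. Differences are DA minus 5-HT on this log2 scale. At an adjusted p under 0.05, 23 shared intergenic regions (0.647%) were higher in DA neurons, where 0.368% of all shared regions were, and 46 (1.29%) were higher in 5-HT neurons, where 0.682% of all were. Among shared intronic regions the counts were 21 (0.542%) and 49 (1.27%), and among shared promoter regions 13 (0.177%) and 15 (0.204%). Intergenic and intronic regions thus had similar shares, and promoters lower ones. Without adjustment, 862 of the 3557 regions (24.2%) were under 0.05, as were 2953 of all 16856 shared regions (17.5%). The median difference was -0.03, with quartiles of -0.26 and 0.21, so the regions went both ways about the middle. By the deposited scores, 2534 of the 3557 regions (71.2%) were higher in each DA library than in either 5-HT library, and 13670 of all 16856 (81.1%), which shows how far the raw scores differ in level between the libraries.

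The counts depended strongly on single libraries. Without DA replicate 1, 2 or 3, the regions higher in DA neurons numbered 0, 0 and 0 and those higher in 5-HT neurons 1, 0 and 1, where 0, 0 and 0 and 1, 0 and 2 of all shared regions were. In the same limma tests 612, 609 and 608 regions were under 0.05 without adjustment, of 1922, 1990 and 1899 over all shared regions. Without 5-HT replicate 1 the counts were 356 (10.0%) and 394 (11.1%), where 7.70% and 8.04% of all shared regions were called. Without 5-HT replicate 2 they were 181 (5.09%) and 293 (8.24%), where 3.35% and 4.31% of all were. In these fits the lone 5-HT library is assumed to vary like the DA libraries. With each library centred on its median instead of made alike in distribution, the counts were 101 (2.84%) and 461 (13.0%), where 2.47% and 7.70% of all were. Over these refits, one with replicate numbers as a term and one with a trend of the variance on the score, 8 in all, the 23 and the 46 regions kept the sign of their difference. The refits reuse the same libraries on regions picked for their difference, so a kept sign is not separate support. No region was called in all 8. Those higher in DA neurons were called in 3 or 4 of the 8, and those higher in 5-HT neurons in at least 3.

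The 23 regions higher in DA neurons had median shared ranks of 76.5, 72.7 and 75.3 in the DA libraries and 12.4 and 13.0 in the 5-HT libraries. They were thus high among the shared regions of one cell type and near the bottom in the other, where scores close to the floor leave little room below. Their differences ran from 0.80 to 1.41 with a median of 0.95. They lay a median of 63.3 kb from a TSS, had a median GC content of 46.7%, and belonged to 23 genes by the nearest TSS.

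The largest difference towards DA neurons was at chr10:69881976-69883059, 20.9 kb upstream of Fam13c, with scores of 11.0, 13.6 and 12.2 in DA neurons and 3.73 and 2.85 in 5-HT neurons. Its shared ranks were near 80 in the DA libraries (80.9, 79.9 and 82.0) and under 5 in both 5-HT libraries (4.56 and 0.860). The difference was 1.41 (95% interval 1.07 to 1.74, n = 3 and 2 libraries, limma adjusted p 0.00913, and 0.000947 to 0.157 over the 8 refits). The region chr1:134040258-134041252, 4.49 kb upstream of the cyclin-dependent kinase gene Cdk18, scored 11.5, 11.8 and 11.0 against 3.66 and 2.91, a difference of 1.27 (0.92 to 1.62, limma adjusted p 0.0167). The region chr16:29668488-29669182, 81.7 kb downstream of the TSS of Opa1, a GTPase of mitochondrial fusion, scored 13.3, 13.6 and 13.2 against 4.13 and 3.15, a difference of 1.22 (0.87 to 1.57, limma adjusted p 0.0170). In these regions the DA libraries were close together and both 5-HT libraries were low.

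Near Rd3, a gene of photoreceptors, chr1:193813830-193814314 scored 14.7, 20.0, 11.6, 3.85 and 3.91, a difference of 1.20 (0.67 to 1.72, limma adjusted p 0.0464), with shared ranks of 6.78 and 47.6 in the 5-HT libraries. Near Arrb1, which encodes a beta-arrestin that turns off receptors coupled to G proteins, chr7:106658532-106659382 scored 11.8, 23.3, 15.1, 5.59 and 3.33, a difference of 1.10 (0.65 to 1.56, limma adjusted p 0.0401). Near Clvs1, a protein of vesicle traffic, chr4:9111292-9112918 scored 11.2, 13.0, 10.7, 4.16 and 3.03, a difference of 1.08 (0.74 to 1.42, limma adjusted p 0.0191). The raw scores of each DA library were above both 5-HT libraries in all of these, as in 71.2% of shared intergenic and 81.1% of all shared regions. The intervals near Rd3 and Arrb1 were wider than those of the other 4 regions with the largest differences towards DA neurons.

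Another of the 23, named here after its values were seen, lies near a gene of DA neuron development. The region chr2:147940248-147940838 lies 67.8 kb upstream of Foxa2, a forkhead factor of the floor plate and of DA neurons, and scored 8.88, 8.87 and 8.52 against 3.80 and 2.88, a difference of 0.92 (0.57 to 1.27, limma adjusted p 0.0331, and 0.00361 to 0.240 over the 8 refits). Each DA library was above both 5-HT libraries, as in 71.2% of all shared intergenic regions. The 4 shared intergenic regions of Foxa2 had differences from -0.32 to 0.92, with 3 above 0 and 1 below by quantile normalisation, and 2 and 2 with median centring. The one with the highest rank in its lowest library, chr2:147730613-147732608, was not called and scored 5.18, 4.93, 4.10, 3.83 and 4.16, a difference of -0.32 (-0.83 to 0.18). Whether regions of the same gene differ from each other was not tested.

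The windows below are the centres of the regions near Fam13c (chr10:69882418-69882617) and Opa1 (chr16:29668735-29668934; mm9, plus strand), shown because these regions were higher in DA neurons. Capitals mark the words searched: TAATTA and an E-box CATCTG, on the other strand CAGATG, in the first, and CCAAT, a SOX word on the other strand and the E-box CAGCTG in the second. The E-box CAGCTG was found in 7 of the 23 regions (30.4%, 95% Wilson interval 15.6 to 50.9%) and in 18.3% of the 3488 regions not called, and the interval holds the latter.
Fam13c: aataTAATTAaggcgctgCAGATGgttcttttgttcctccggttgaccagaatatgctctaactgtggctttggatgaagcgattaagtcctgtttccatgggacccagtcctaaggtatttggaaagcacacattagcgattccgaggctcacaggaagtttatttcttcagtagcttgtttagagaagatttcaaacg
Opa1: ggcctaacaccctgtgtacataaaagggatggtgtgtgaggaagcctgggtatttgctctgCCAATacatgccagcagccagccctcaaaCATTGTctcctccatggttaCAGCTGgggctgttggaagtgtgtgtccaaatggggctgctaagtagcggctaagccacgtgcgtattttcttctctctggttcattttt

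The 46 regions higher in 5-HT neurons had median shared ranks of 62.1 and 65.4 in the 5-HT libraries and 3.74, 6.86 and 7.0 in the DA libraries. Here the DA libraries were near the bottom of their shared regions. The differences had a median size of 0.91. The raw scores of both 5-HT libraries were above those of all DA libraries in 9 of the 46, and in 54 of all 16856 shared regions (0.320%), as 5-HT scores are lower in level. The regions lay a median of 77.3 kb from a TSS of 44 genes and had a median GC content of 49.1%. Words of SOX factors were found in 19 of the 46 (41.3%, Wilson interval 28.3 to 55.7%), in 4 of the 23 higher in DA neurons (17.4%, 6.98 to 37.1%) and in 27.3% of those not called. TAATTA was found in 7 of the 46 (15.2%, 7.57 to 28.2%), 2 of the 23 (8.70%, 2.42 to 26.8%) and 5.42% of those not called. These words were picked from all those searched, regions are not replicates, and whether the groups differ was not tested. The CTCF core was found in none of the 23 and none of the 46.

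Among the largest differences towards 5-HT neurons was chr11:112672491-112673077, 26.7 kb downstream of the TSS of Sox9, a factor of neural progenitors and glia, with scores of 3.78, 4.78 and 3.99 in DA and 6.59 and 5.86 in 5-HT neurons. The groups did not overlap, and the difference was -1.25 (-1.62 to -0.88, limma adjusted p 0.0170, and 0.00100 to 0.176 over the 8 refits). The region chr4:114338159-114339881 near the predicted gene Gm12830 scored 7.64, 7.22, 7.98, 11.4 and 7.58, a difference of -1.19 (-1.57 to -0.82, limma adjusted p 0.0191), and its raw scores overlap. The region chr17:56641796-56642370 near the RING finger gene Znrf4 scored 3.45, 5.37, 3.54, 6.21 and 5.23, a difference of -1.17 (-1.57 to -0.77, limma adjusted p 0.0244). The region chr7:46888099-46888722 near the predicted gene Gm2058 scored 3.56, 3.09, 4.22, 5.62 and 4.91, a difference of -1.11 (-1.50 to -0.72, limma adjusted p 0.0244). In all 4 regions 5-HT replicate 1 was above every DA library.

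A few others of the 46 were named after their values were seen, and they do not stand for the rest. The region near Jag1, a ligand of Notch, chr2:136978806-136979387, scored 3.96, 5.31, 4.75, 6.82 and 4.79 (difference -1.01, -1.36 to -0.67, limma adjusted p 0.0244). The region near Ptprz1, a phosphatase of radial glia and oligodendrocyte precursors, chr6:22783667-22784991, scored 4.85, 5.27, 4.50, 6.79 and 4.61 (difference -0.91, -1.25 to -0.58, limma adjusted p 0.0276). In both, 5-HT replicate 1 was above the DA libraries and 5-HT replicate 2 was within their range. A region 28.2 kb upstream of Lmx1a, a LIM homeobox factor that specifies DA neurons, chr1:169590784-169591617, scored 3.72, 4.09, 3.35, 4.94 and 3.81 (difference -0.77, -1.11 to -0.43, limma adjusted p 0.0464). A further one 226 kb downstream, chr1:169845063-169845819, scored 8.58, 14.2, 8.79, 5.00 and 4.09, with a difference of 0.36 that was not called (-0.05 to 0.76). The promoter of Lmx1a itself had scores of 5.00, 5.62 and 4.09 in DA neurons and 0 in both 5-HT libraries. Whether these regions differ from each other was not tested.

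The centre of the region near Sox9 (chr11:112672684-112672883; mm9, plus strand) is shown because this region was higher in 5-HT neurons and its groups did not overlap. Capitals mark the homeodomain word TAATTA, the E-box CAGCTG and the NF-Y word CCAAT.
Sox9: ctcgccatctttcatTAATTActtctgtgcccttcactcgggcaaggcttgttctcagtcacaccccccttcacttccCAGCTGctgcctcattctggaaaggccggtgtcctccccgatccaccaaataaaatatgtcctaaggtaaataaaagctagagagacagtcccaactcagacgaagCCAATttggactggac

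Neighbouring genes were described by the nearest TSS. The 3557 regions had 2648 of the 22232 protein-coding genes (11.9%) as neighbours, and 2019 of these genes (76.2%) had 1 region. Among 29 factors of midbrain and hindbrain patterning and fate, 13 (44.8%) had at least 1 region. The share was 52.0% (13 of 25) for neuronal homeobox and bHLH genes, 80.0% (8 of 10) for SOX genes and 33.3% (8 of 24) for pan-neuronal genes. It was 18.2% (4 of 22) for genes of other cell types and 6.25% (1 of 16) for monoamine genes. Genes in wide intergenic space have more room for neighbouring regions, and the sizes of these spaces were not compared, so the shares are a description. The median difference between DA and 5-HT neurons was -0.17 over the 25 regions of the patterning factors, -0.11 over 16 of pan-neuronal genes, -0.01 over 20 of homeobox and bHLH genes, -0.09 over 10 of SOX genes and -0.22 over 6 of other cell types, against -0.03 over all 3557. With median centring these were -0.28, -0.26, -0.29, -0.37 and -0.59 against -0.12, so the sizes depended on the scaling.

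Among the patterning factors, Foxa2 had 4 regions, En1, a homeobox gene of the midbrain and anterior hindbrain, had 3, and Gata3 and Lmx1a had 2 each. Factors with 1 region were En2, Fgf8, Gata2, Neurog2, Nkx6-1, Otx2, Pax5 and Pax8. Of the 25 regions 2 were higher in DA neurons, 1 at Foxa2 and 1 at En1, 3 were higher in 5-HT neurons, and 11 were under 0.05 without adjustment. The 2 regions near Gata3, a factor of 5-HT neurons, had differences of -0.75 and 0.34 and lay 258 to 273 kb away. The one of higher rank, chr2:9541650-9543024, scored 14.3, 14.6, 13.3, 6.87 and 5.13 and is the one above 0 (-0.02 to 0.70). Near Nkx6-1, a homeobox gene of ventral progenitors, chr5:101794259-101794684 scored 7.55, 7.31, 8.07, 4.75 and 4.09, a difference of 0.04 (-0.35 to 0.43). None of these 3 was called.

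The monoamine genes, among them Th, Ddc, Slc18a2 and Tph2, had 1 region, at Htr1a, the serotonin receptor that 5-HT neurons carry as an autoreceptor. This region, chr13:106167234-106167634, lay 66.3 kb upstream and scored 7.70, 8.32, 9.36, 6.31 and 3.99, a difference of -0.07 (-0.43 to 0.29). Shared ranks were 40.5 to 62.9 in DA and 63.0 and 50.6 in 5-HT neurons, so it stood in the middle of the shared regions in both. For the other 15 genes, no shared intergenic region had its nearest TSS there.

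Pan-neuronal genes had regions at Myt1l, Ncam1, Nova1, Elavl2, Snap25, Elavl3, Stmn1 and Stmn2, and none of the 16 was called. The highest, chr12:29975492-29976315, 237 kb upstream of Myt1l, a zinc finger factor that keeps neuronal identity, scored 23.1, 24.3, 23.4, 10.4 and 7.72, with shared ranks of 94.6 to 99.5 in the 5 libraries and a difference of 0.41 (0.05 to 0.76, limma adjusted p 0.227). Near Ncam1, a neural adhesion molecule, chr9:49681649-49682252 scored 10.6, 12.2, 10.8, 8.27 and 4.70, a difference of -0.07 (-0.45 to 0.30). These stood high in both cell types. Near Snap25, a protein of vesicle fusion, chr2:136504196-136505020 scored 4.55, 6.18, 5.16, 5.40 and 3.87, a difference of -0.48 (-0.82 to -0.15, limma adjusted p 0.145). Near Stmn1, which destabilises microtubules, chr4:134033623-134034391 scored 9.74, 10.8, 7.32, 5.22 and 4.55, a difference of 0.09 (-0.33 to 0.51). Near the RNA-binding proteins Nova1 and Elavl2 the differences were -0.15 (-0.50 to 0.19) at chr12:48265093-48266376 and -0.23 (-0.60 to 0.14) at chr4:90758814-90759565.

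Of the homeobox and bHLH genes, Pou3f3, a POU factor of young neurons, had 5 regions, within 17.5 kb of its TSS. The highest, chr1:42749964-42752938, scored 9.48, 10.9, 9.26, 7.0 and 4.75, a difference of -0.11 (-0.44 to 0.23), with shared ranks of 61.9 to 73.8. A second, chr1:42740975-42742296, was higher in 5-HT neurons (3.89, 5.14, 4.16, 5.75 and 3.96; difference -0.77, -1.11 to -0.43, limma adjusted p 0.0464), and it was the 1 region called among the 20 of this list. The related Pou3f2 had chr4:22421836-22422727, with 5.34, 5.43, 6.29, 5.49 and 5.48, a difference of -0.68 (-1.11 to -0.25, limma adjusted p 0.116). Its scores overlapped, and its shared rank was highest in 5-HT replicate 2, at 80.8. Near Neurod1, a factor of neuronal differentiation, chr2:79339191-79339765 scored 10.1, 15.9, 10.5, 5.78 and 4.47, a difference of 0.36 (-0.02 to 0.74). Near Id2, an inhibitor of bHLH factors, chr12:25783451-25784635 scored 9.02, 10.1, 10.5, 5.71 and 5.09, a difference of 0.02 (-0.36 to 0.40). Regions near Meis1 and Neurod2 had differences of 0.20 (-0.17 to 0.58) and 0.05 (-0.40 to 0.50) with quantile normalisation, and both were below 0 with median centring.

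SOX genes had regions at Sox2, Sox4, Sox6, Sox9, Sox11, Sox12, Sox14 and Sox21. Near Sox12, a factor of newborn neurons, chr2:152231596-152232407 scored 12.3, 14.7, 15.6, 7.21 and 3.79, a difference of 0.55 (0.14 to 0.97, limma adjusted p 0.171). Near Sox4, of the same subfamily, chr13:29049404-29051864 scored 7.50, 9.46, 6.96, 6.32 and 4.28, a difference of -0.22 (-0.56 to 0.12), and near Sox11, chr12:28041788-28042632 scored 5.23, 7.43, 4.78, 4.51 and 3.25, a difference of -0.02 (-0.38 to 0.35). Neither was called. Near Sox2, which maintains progenitors, chr3:34987050-34987932 lay 438 kb away with low shared ranks of 2.82 to 22.1, a difference of -0.17 (-0.57 to 0.22). Near Sox21, chr14:118629460-118631344 scored 4.45, 3.39, 3.68, 5.07 and 3.58, a difference of -0.67 (-1.03 to -0.31, limma adjusted p 0.0760). Of the 10 SOX regions, that of Sox9 was the 1 called.

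Genes of other cell types had regions at Slc1a3, Aqp4, Olig2 and Pdgfra, all of glia or their precursors, and at none of the vessel, microglia and blood genes of the list. Their 6 regions, 3 of them at Slc1a3, all had differences below 0, with quantile normalisation and with median centring, and 1 was called. Of all 3557 regions, 1920 were below 0 with quantile normalisation and 2249 with median centring. Near Slc1a3, the glutamate transporter of radial glia and astrocytes, chr15:8579061-8580061 scored 7.57, 9.91, 9.15, 6.61 and 4.51, a difference of -0.16 (-0.50 to 0.17). Near Aqp4, the water channel of astrocytes, the region at chr18:15563218-15563975 scored 4.38, 5.77, 6.95, 7.71 and 5.46, a difference of -0.99 (-1.39 to -0.60, limma adjusted p 0.0373). 5-HT replicate 1 was above the DA libraries and 5-HT replicate 2 within their range. Near Olig2, a factor of motor neuron and oligodendrocyte precursors, chr16:91222244-91223785 scored 3.69, 3.26, 4.22, 3.42 and 3.07, and near Pdgfra, a receptor of oligodendrocyte precursors, chr5:75742650-75744018 scored 3.99, 5.18, 4.69, 4.10 and 3.18. Both were low in all 5 libraries. The promoter scores of glial genes are given above, and their part in the differences near such genes was not tested.

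Genes with many regions were Tbl1xr1, which encodes a subunit of the NCoR corepressor, and Rpl36-ps3, with 7 each, followed by Mms22l, a factor of replication repair, and Arl4a, a small GTPase, with 6 each. The 7 of Tbl1xr1 lay 140 to 719 kb from its TSS and had differences from -0.75 to 0.50. The 7 of Rpl36-ps3 lay 34.1 to 321 kb upstream, and 1 of them, chr12:12686983-12688713, was higher in 5-HT neurons (5.26, 6.36, 6.60, 7.66 and 4.97; difference -0.83, -1.17 to -0.48, limma adjusted p 0.0424). Those of Mms22l and Arl4a lay up to 894 and 527 kb away, with differences from -0.37 to 0.30 and from -0.85 to 0.09, and none was called.

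The densest groups held 5 regions within 50 kb, and 6 such groups tied. The one at Pou3f3, chr1:42740975-42771746, had median scores of 5.02, 5.69, 4.26, 5.08 and 3.96 and a median GC content of 57.5%. The one near Klrb1c, a receptor gene of natural killer cells, chr6:128709787-128755781, had 9.84, 13.3, 11.3, 8.31 and 4.39, above the medians of all shared intergenic regions in each library, with differences from -0.55 to 0.33 and none called.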

How the data were processed

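The scores deposited for 3 DA and 2 5-HT ATAC-seq libraries were used as they are. By the submitters' notes, reads were trimmed with Trimmomatic, checked with FastQC, aligned to mm9 with Bowtie2, cleared of duplicates with Picard, called as peaks with MACS2 and annotated with HOMER; the paper adds that peaks under 100 bp apart were merged with BEDOPS. Versions of these tools, the read depth and the scale of the score are not given in the sources used here. The score that the authors deposited is 0 without a peak, and the columns for signal, p and q hold no values. In 1 line the chromosome name is misspelled and was put right.

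The centre of a region gave its place as promoter, exon, intron or intergenic in GENCODE, using 95495 transcripts, 51723 of them protein-coding, and nearest genes were taken over protein-coding TSSs. Log2 scores of the 16856 shared regions were quantile-normalised and compared with limma 3.58.1 in R 4.3.3, with Benjamini-Hochberg adjusted p under 0.05 as the threshold; the test was checked on simulated data. Intervals of shares are 95% Wilson intervals and cover counting error only. Copies were searched with BLAST+ 2.17.0, with low-complexity sequence masked at the seeds, which left 5 windows without a seed. Tables were made with Python 3.11.15, NumPy 2.4.6, pandas 2.3.3 and statsmodels 0.14.6.

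The regions and gene lists were chosen with earlier results of these data known. Named by rule were the 6 regions with the highest percentile in their lowest library, the 6 called regions with the largest differences in each direction, the 3 farthest from a TSS, the 2 widest and the 2 narrowest past the width limit, the highest region for up to 6 genes of each list, the 4 genes with the most regions and the 3 densest groups. Of the 6 tied groups, 2 were described, and not every region the rule names is given. Alternatives were other limits for width, promoter and overlap, protein-coding genes alone, the 22879 highest-scoring regions of each library, median centring, a replicate block, an intensity trend, each library left out, TSSs of all transcripts, windows of 400 bp and windows without copies. Copies at 80% identity were added after seeing the data. Repeats could not be counted, because the genome marks none.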

Additional observations from a re-analysis of the deposited data

How the results depend on the processing

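The number of shared intergenic regions was 1880 when each library kept its 22879 highest-scoring regions, and 3569 to 7601 when a library was left out, the highest without 5-HT replicate 2. It stayed between 3405 and 3983 under the alternatives for width, promoter, overlap and annotation. Regions higher in DA neurons numbered 101 with median centring, 1 with equal numbers of regions, and 0 to 356 with a library left out; those higher in 5-HT neurons numbered 461, 1 and 0 to 394. With a replicate block, which treats equal replicate numbers as paired, the counts were 0 and 1, with 619 regions, of 1898 over all shared regions, under an unadjusted 0.05 in limma, although deviations of libraries with the same number were unrelated (Pearson's r -0.0086 and 0.026 over the shared regions). An intensity trend gave 27 and 62, of 68 and 151 over all. The causes of these changes were not tested. With TSSs of all transcripts the median distance was 23.9 kb, and at 80% identity, chosen after seeing the data, 147 regions had a copy.

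A window of 400 bp holds more bases, and the shares rose to 8.29% for the CTCF core, 31.7% for CAGCTG, 30.2% for CATCTG, 9.95% for TAATTA, 47.1% for ACAAAG or ACAATG, 0.450% for TTCAGCACC, 24.5% for GGGCGG, 6.13% for TGACTCA, 4.13% for ATTTGCAT, 13.7% for TGANNTCA, 1.83% for GCATGCGC and 39.8% for CCAAT. Leaving out windows with a copy moved no share beyond its 95% Wilson interval.

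The read depth is unknown, so the precision of single scores cannot be given. With 3 and 2 libraries and scores near the floor in the library with the shortest list, a small difference between cell types was not detectable, and a region not called is not shown to be alike in both.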
